A study of Homo sapiens with 62 samples.

Results

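Genes of 3 families that act in pre-mRNA splicing were followed through 20 RNA-seq libraries of the human B-cell line GM12878. They comprise 10 genes for SR proteins, 14 for heterogeneous nuclear ribonucleoproteins (hnRNPs), and 15 for proteins of the small nuclear ribonucleoproteins (snRNPs) and factors of U2 snRNP recruitment, 39 genes of the 55040 rows in each file. A gene was found by its symbol in the deposited tables, and each of the 39 symbols named 1 row.

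Splicing removes introns in steps that these families share out. SR proteins carry RNA recognition motifs and a domain of arginine-serine repeats, bind exonic enhancers and recruit the spliceosome, whereas many hnRNPs coat nascent transcripts and often repress the use of a site. The snRNPs form the core of the machine: a ring of Sm proteins sits on the U1, U2, U4 and U5 RNAs, U1 snRNP reads the 5′ splice site, and U2AF leads U2 snRNP to the branch site. Proliferating lymphoid cells express all of these families.

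GM12878 is a lymphoblastoid line, that is, B cells immortalised by Epstein-Barr virus. The study picked cells by hand and amplified their polyadenylated RNA by SMART-seq, and as a control for technical variation it divided pools of 10 cells into 10 parts and carried each part through as if it were a cell. Those pool splits formed 2 sets of 10 libraries: one is called numbered here because its titles give the split (1 to 10), and the other unnumbered because its titles hold just a library number (232, 233 and 246 to 253). All 20 libraries share the line, with no treatment, genotype or time that differs between the sets, and whether a set stems from 1 pool is not said in the labels. P-values below set the difference between the sets against the spread between the splits of a set, which is technical if the set was 1 pool. In that case n = 10 counts splits and not pools. A difference between the sets then cannot be told apart from a difference between 2 pools. The titles of 9 unnumbered splits, all but 247, mark their records as superseded.

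Levels are fragments per kilobase of transcript and per megafragment mapped (FPKM), a scale already divided by transcript length, and a gene was called detected at 1 FPKM or more. Depth estimated from the authors' confidence bounds was 11.8 to 20.6 megafragments over the numbered splits and 7.79 to 38.7 megafragments over the unnumbered ones, apart from 0.128 in split 247. The mitochondrial share of the FPKM was 3.62 to 6.66% for numbered splits and 6.45 to 8.51% for unnumbered splits. Markers of B cells were detected for 9 of 10 genes, and their summed level was 7690 to 12992 FPKM in numbered splits and 3856 to 6368 FPKM in unnumbered splits. Of the markers of T and NK cells 3 of 8 reached 1 FPKM in some split, of myeloid cells 2 of 7, of erythroid cells 0 of 5, of fibroblasts 1 of 5 and of epithelial cells 3 of 5, with CD3D, CD14, HBB, COL1A2 and KRT18 listed at 0 in every split. Their summed levels reached at most 243, 53.8, 0.206, 2.61 and 139 FPKM in any split. The part of depth, mitochondrial share and marker levels in the results below was not tested.

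The SR proteins held the smallest share of the 3 families in every split. Genes of the snRNP proteins and U2 factors held the largest share of the FPKM, the hnRNPs the next and the SR proteins the smallest in 9 of 10 numbered and 6 of 10 unnumbered splits. In the other splits (9, 232, 233, 248 and 253) the hnRNPs came first and the snRNP proteins next. HNRNPU is left out of these sums, because its estimate failed in split 249.

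On average all 3 families held a larger share of the FPKM in unnumbered splits. For the SR proteins the lowest, median and highest share were 0.0451%, 0.0896% and 0.152% in numbered splits and 0.115%, 0.196% and 0.262% in unnumbered splits, so the sets overlapped, through numbered split 9. The hnRNPs held 0.250%, 0.292% and 0.410% against 0.413%, 0.571% and 0.685%, with no overlap. For the snRNP proteins and U2 factors these shares were 0.279%, 0.409% and 0.489% against 0.540%, 0.635% and 0.823%, also with no overlap. These shares are descriptions without a test, and a share also moves with the other genes of the library.

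The total to which the share refers differed too. The FPKM of all rows summed to 1393500 ± 194854 in numbered splits and 1170690 ± 46828 in unnumbered splits (SD, n = 10). As summed FPKM, the hnRNPs reached 3479, 4197 and 4944 in numbered splits and 4838, 6521 and 8156 in unnumbered splits (lowest, median, highest). The sets overlap on that scale, and so do the snRNP proteins, at 3090, 5950 and 7088 against 6006, 7550 and 10287 summed FPKM. Without the most abundant gene of the family, HNRNPA1 or SNRPG, the mean share was still larger in unnumbered splits, at 0.221% against 0.439% for the hnRNPs and 0.319% against 0.470% for the snRNP proteins.

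**Figure D1:**
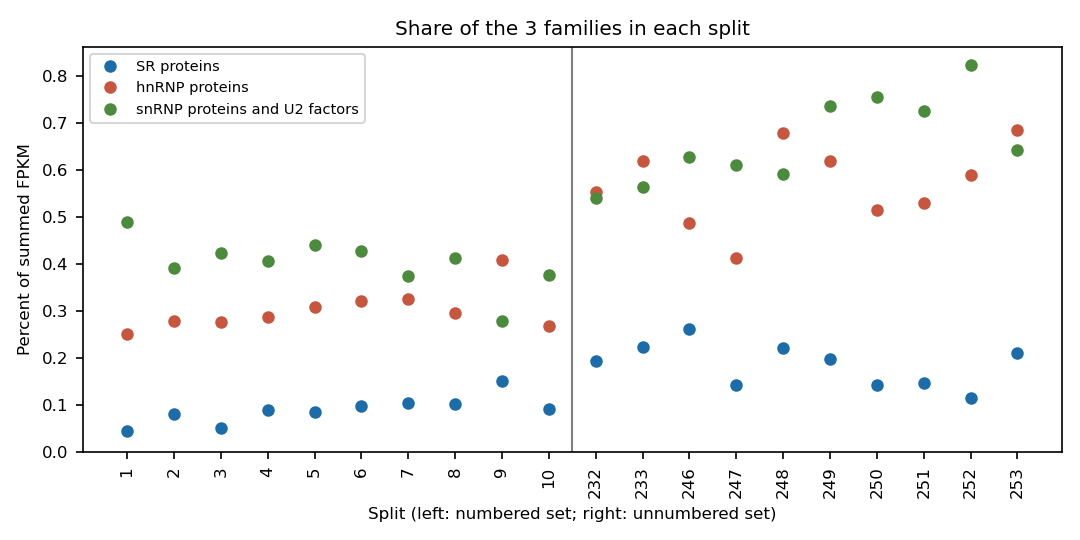
Share of the summed FPKM of all rows (percent, vertical axis) held by the SR proteins, the hnRNPs and the snRNP proteins with U2 factors in each of the 20 splits, 1 point per split and family. The numbered splits are on the left and the unnumbered ones on the right; the hnRNPs lie at 0.250 to 0.410% on the left and 0.413 to 0.685% on the right, and in split 9 they exceed the snRNP proteins.

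Genes were compared between the sets with limma on log2(FPKM + 1), a scale that understates the change of low genes, over the 10506 rows with a mean of 1 FPKM or more. A log2 difference is the numbered minus the unnumbered set, so a value below 0 means a higher level in the unnumbered splits. At an adjusted p of 0.05, 558 genes (5.31%) passed, 413 higher in numbered splits (3.93%) and 145 higher in unnumbered splits (1.38%). Of the 39 splicing genes 38 could be tested, and 2 passed: SRSF6 and HNRNPH1, both higher in unnumbered splits. None passed with a higher level in numbered splits by limma or by an exact rank-sum test, and 4 did so at an unadjusted p under 0.05, U2AF1, SRSF5, HNRNPM and SNRPB. In the other direction 10 of 38 had an unadjusted p under 0.05, beside 4.76% of all genes tested, and for the 4 the share of all genes was 11.6%; in either direction it was 14 of 38 against 16.3%.

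A larger share of the members than of all genes lay below 0. The log2 difference was below 0 for 25 of 38, against 40.1% of all genes tested, and for 19 of the 25 members with a mean of 100 FPKM or more, against 44.9% of the 1434 genes at that level. Its median was -0.51 over the SR proteins, -0.92 over the hnRNPs and -0.14 over the snRNP proteins and U2 factors, and 0.35 over all genes. Within the hnRNPs 11 of 13 differences were below 0, within the SR proteins 6 of 10 and within the snRNP group 8 of 15. The median over all genes depends on the scaling and on the libraries used. It was 0.24 when each library was scaled to the same total. Without numbered splits 5 to 8 it was 0.056, where 46.4% of all genes and 29 of 38 members lay below 0. Removing a trend on transcript length brought it to 0.0067, with family medians of -0.79, -1.10 and -0.67. That step centres the genes of each library near 0, so this median follows from the step itself. Neither the share of members below 0 nor the difference between the 3 families was tested.

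**Figure D2:**
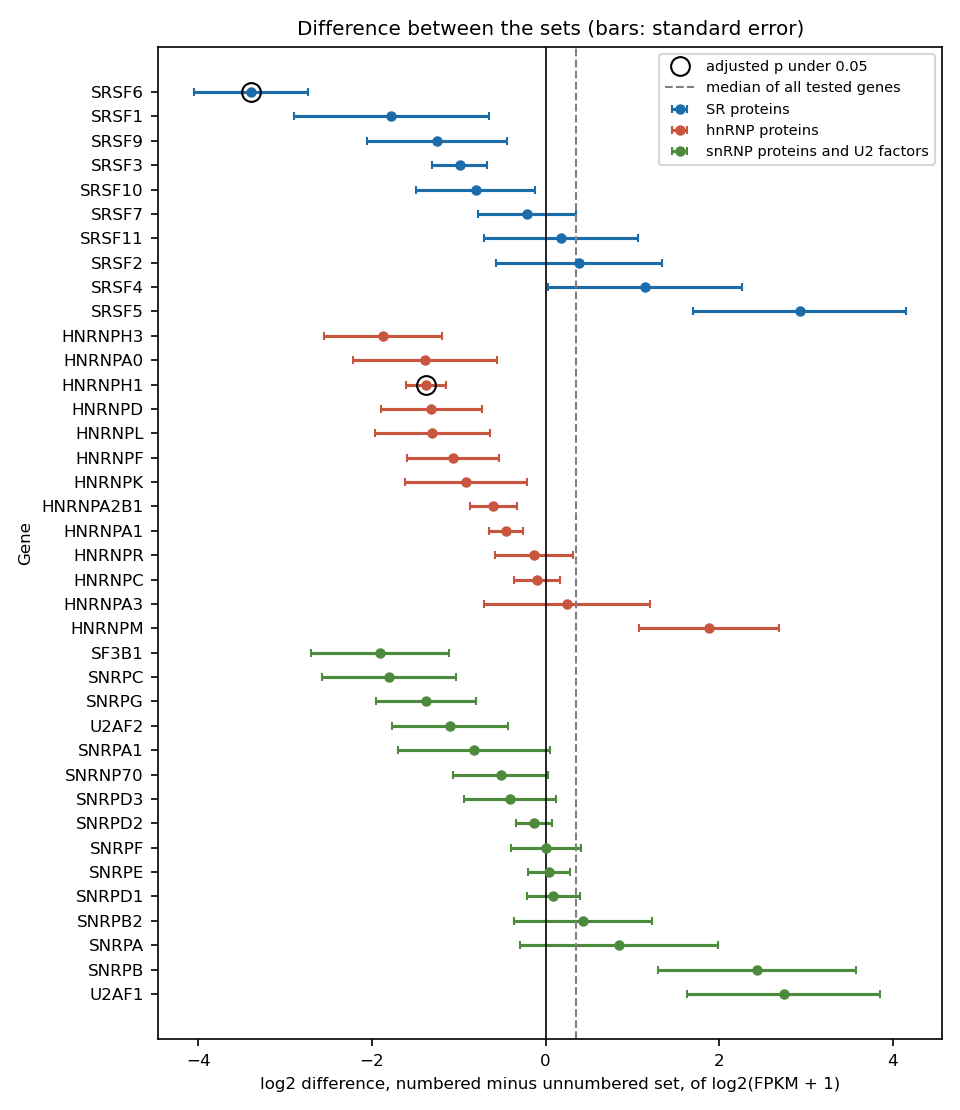
Log2 difference between the sets (horizontal axis, numbered minus unnumbered, of log2(FPKM + 1)) with its standard error for the 38 genes tested, grouped by family and ordered by size. The dashed line marks the median of all genes tested, 0.35; black rings mark SRSF6 and HNRNPH1, whose adjusted p is under 0.05.

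Among the SR proteins, SRSF6 set the sets apart most clearly. SRSF6 is an SR protein with a pair of RNA recognition motifs that binds exonic enhancers, and its row (ENSG00000124193.9) spans 42086568 to 42092245 on chromosome 20 in the deposited coordinates, of a build that the labels of these files do not name. It stood at 0.812, 57.8 and 138 FPKM in numbered splits and 146, 484 and 659 FPKM in unnumbered splits (lowest, median, highest). Every unnumbered split lay above every numbered one, a separation in this direction that 37 of the genes tested show (0.352%) and no other member does. The reverse separation, found for 1.65% of the genes tested, occurred in 0 of 38 members. The means were 61.7 ± 43.4 and 442 ± 161 FPKM (SD, n = 10 each), a 7.17-fold higher level in unnumbered splits, and the log2 difference was -3.39 with a standard error of 0.65 (limma, adjusted p = 0.00115). The call held in all 34 alternatives tried, with adjusted p from 0.000104 to 0.00397. Of these, 20 left out 1 library each, so the alternatives overlap and are not independent. The log2 difference was -3.97 without numbered splits 5 to 8, whose experiment numbers lie apart from those of the other 16 libraries.

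The 250 bases before the RefSeq start of SRSF6 (GRCh38.p14, chr20:43457646-43457895, plus strand) are shown because no other member differed more between the sets. Capitals mark 2 GC boxes (GGGCGG or its reverse complement CCGCCC, searched on both strands), the motif bound by Sp-type factors. A GC box stood in this window in 3 of the 9 SR promoters, 9 of 13 of the hnRNPs and 7 of 14 of the snRNP group, and in 42.3% of all 27305 promoters. Each gene entered with the first start listed for it.
SRSF6: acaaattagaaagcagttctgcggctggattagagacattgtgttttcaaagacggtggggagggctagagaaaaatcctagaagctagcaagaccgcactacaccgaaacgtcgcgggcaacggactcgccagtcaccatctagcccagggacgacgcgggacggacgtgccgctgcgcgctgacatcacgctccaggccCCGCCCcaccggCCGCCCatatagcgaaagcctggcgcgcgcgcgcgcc

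SRSF7, SRSF3 and SRSF10 had the highest means of the SR genes over the 20 splits together, although SRSF6 exceeded SRSF10 on average in the unnumbered splits alone. SRSF3, the smallest SR protein and an adaptor of mRNA export, was the steadiest of them, at 80.6, 249 and 388 FPKM in numbered splits and 292, 469 and 701 FPKM in unnumbered splits. The sets overlapped between 292 and 388 FPKM. Its means were 249 ± 94.3 and 475 ± 142 FPKM (SD, n = 10), and the log2 difference of -0.99 (SE 0.32) did not pass (limma, adjusted p = 0.0755). It passed in 13 of 34 alternatives, among them scaling to the same total (0.0124) and leaving out numbered splits 5 to 8 (0.0279), over a range of 0.00969 to 0.230. Leaving out any one of numbered splits 4, 5, 7 or 8 or unnumbered splits 247 or 251 was enough, with adjusted p of 0.0459, 0.0334, 0.0422, 0.0321, 0.0388 and 0.0413.

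SRSF7, an SR protein with a zinc knuckle, had the highest mean of the family, 310 ± 118 and 498 ± 305 FPKM. It ran from 174 over 284 to 534 FPKM in numbered splits and from 11.8 over 492 to 963 FPKM in unnumbered splits, which enclosed the numbered one. Its log2 difference was -0.21 (SE 0.56, adjusted p = 0.860 by limma). SRSF10, which represses splicing when dephosphorylated, ran from 3.70 over 251 to 509 FPKM and from 39.6 over 343 to 700 FPKM. Split 1 lay below every unnumbered split, splits 246 and 249 lay above every numbered one, and the rest overlapped. Its means were 256 ± 163 and 356 ± 203 FPKM, and the log2 difference was -0.80 (SE 0.69, adjusted p = 0.597).

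SRSF5 and SRSF4, a related pair, were the least steady SR genes. SRSF5 stood at 0.206, 140 and 356 FPKM in numbered splits and at 0, 12.6 and 911 FPKM in unnumbered splits. Split 4 was its single low numbered library, whereas 4 unnumbered splits (232, 249, 250 and 252) were below 1 FPKM and split 253 alone reached 911. The means were 155 ± 99.9 and 120 ± 282 FPKM, and the log2 difference was 2.93 (SE 1.23, limma adjusted p = 0.213). SRSF4 was detected in 11 of 20 splits. It ran from 0.0241 over 8.26 to 117 FPKM and from 0 over 0.0670 to 159 FPKM, with means of 23.6 ± 35.9 and 21.2 ± 49.7 FPKM and a log2 difference of 1.15 (SE 1.12, adjusted p = 0.605).

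The remaining SR genes were of low or middle level. SRSF2, a marker protein of nuclear speckles, averaged 71.1 FPKM over the 20 splits, SRSF1, the founding member of the family, 56.8, SRSF11 43.9 and SRSF9 35.4. Their log2 differences ran from -1.77 for SRSF1 to 0.38 for SRSF2, and none passed. SRSF1 was listed at 0 in 1 unnumbered split, 247.

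**Figure D3:**
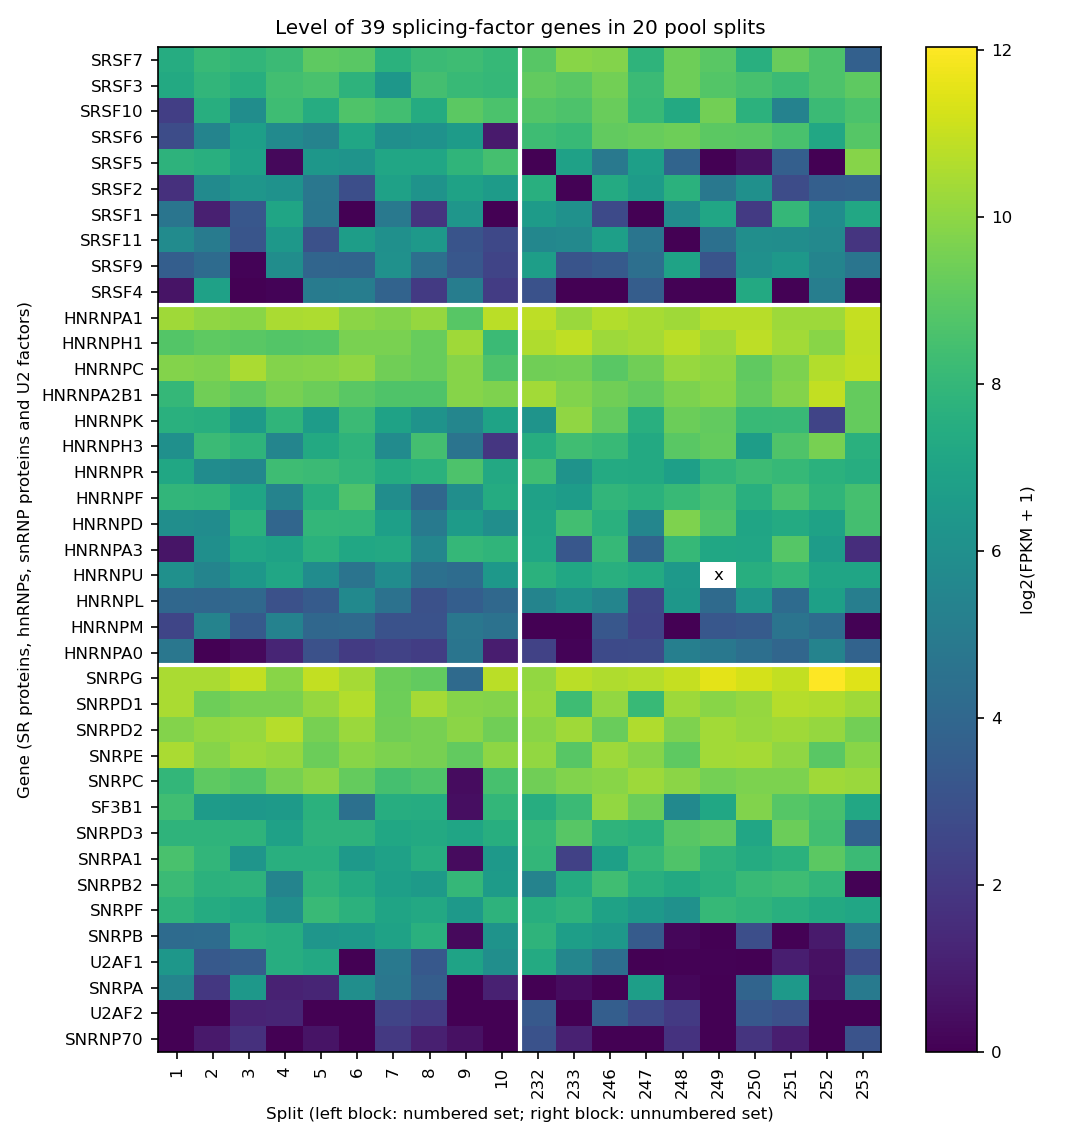
Level of the 39 genes as log2(FPKM + 1) (color) in each split, with genes in rows by family and by falling mean within a family, and splits in columns (numbered left, unnumbered right). The grey cell with a cross is the failed estimate of HNRNPU in split 249; in the column of split 9 SNRPC, SNRPA1, SF3B1 and SNRPB are dark.

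Among the hnRNPs, HNRNPH1 differed between the sets. hnRNP H1 binds runs of guanosines near splice sites, and its row (ENSG00000169045.13) spans 179041179 to 179061785 on chromosome 5 in the deposited coordinates. Its level was 293, 517 and 1276 FPKM in numbered splits and 939, 1474 and 1915 FPKM in unnumbered splits. Only numbered split 9, at 1276 FPKM, reached into the unnumbered range; the other 9 numbered splits were at 795 FPKM or below. The means were 614 ± 279 and 1512 ± 336 FPKM (SD, n = 10 each), 2.46-fold higher in unnumbered splits, with a log2 difference of -1.38 (SE 0.23, limma adjusted p = 0.000224). The call held in all 34 alternatives, at adjusted p of 2.2e-05 to 0.00237, with a difference of -1.50 without numbered splits 5 to 8.

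The other G-run binding hnRNPs lay on the same side without passing. HNRNPH3 had the second smallest p of the family, at 2.69, 111 and 342 FPKM in numbered splits and 102, 302 and 751 FPKM in unnumbered splits. The overlap was wide, and the lowest split was numbered split 10. Its means were 143 ± 122 and 352 ± 211 FPKM, with a log2 difference of -1.87 (SE 0.68, adjusted p = 0.128). HNRNPF averaged 154 ± 119 and 248 ± 99.6 FPKM, with -1.07 (SE 0.53, adjusted p = 0.317).

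Over the 20 splits HNRNPA1 and HNRNPC were, with HNRNPH1, the 3 most abundant hnRNP genes. hnRNP A1, a repressor of exon inclusion that also shuttles to the cytoplasm, stood at 476, 1080 and 1771 FPKM in numbered splits and 1181, 1493 and 2015 FPKM in unnumbered splits. It was low in split 9 alone, and the sets overlapped above 1181 FPKM. Its means were 1149 ± 368 and 1521 ± 296 FPKM, with a log2 difference of -0.46 (SE 0.20, adjusted p = 0.237), and it passed under scaling to the same total (0.0125) and size factors (0.0422), over a range of 0.0125 to 0.402. HNRNPC, whose protein binds uridine tracts, ran from 406 over 893 to 1437 FPKM and from 491 over 765 to 1943 FPKM. These sets overlapped between 491 and 1437 FPKM, with means of 861 ± 274 and 969 ± 476 FPKM and a log2 difference of -0.10 (SE 0.26, adjusted p = 0.859). HNRNPA2B1, a close relative of HNRNPA1, averaged 602 ± 209 and 928 ± 438 FPKM (log2 difference -0.60, SE 0.27, adjusted p = 0.262). HNRNPA1 exceeded HNRNPA0, an intronless relative at 11.9 FPKM on average, 112-fold, and in 20 of 20 splits.

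HNRNPU, whose protein binds RNA and chromatin as a scaffold, could be read in 19 of the 20 splits. It stood at 17.9, 56.9 and 138 FPKM in numbered splits and at 88.4, 164 and 239 FPKM in the 9 unnumbered splits with an estimate. Split 4, at 138 FPKM, was the only numbered split inside the unnumbered range. The means were 58.8 ± 36.6 (n = 10) and 166 ± 46.2 FPKM (n = 9). With split 249 treated as missing, an alternative chosen after seeing the data, the log2 difference was -1.68 (SE 0.50, limma adjusted p = 0.0498).

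Other hnRNPs covered a wide range of levels. HNRNPK, a binder of cytidine-rich RNA, averaged 285 FPKM over the 20 splits, HNRNPR 203, HNRNPD, which binds AU-rich elements, 193, HNRNPA3 145, HNRNPL, which binds CA repeats, 33.5 and HNRNPM 13.1. Of these, HNRNPM and HNRNPA3 had log2 differences above 0, of 1.88 (adjusted p = 0.225) and 0.25 (0.906), and the other 4 below 0. The sign of HNRNPA3 turned in 7 of 34 alternatives.

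**Figure D4:**
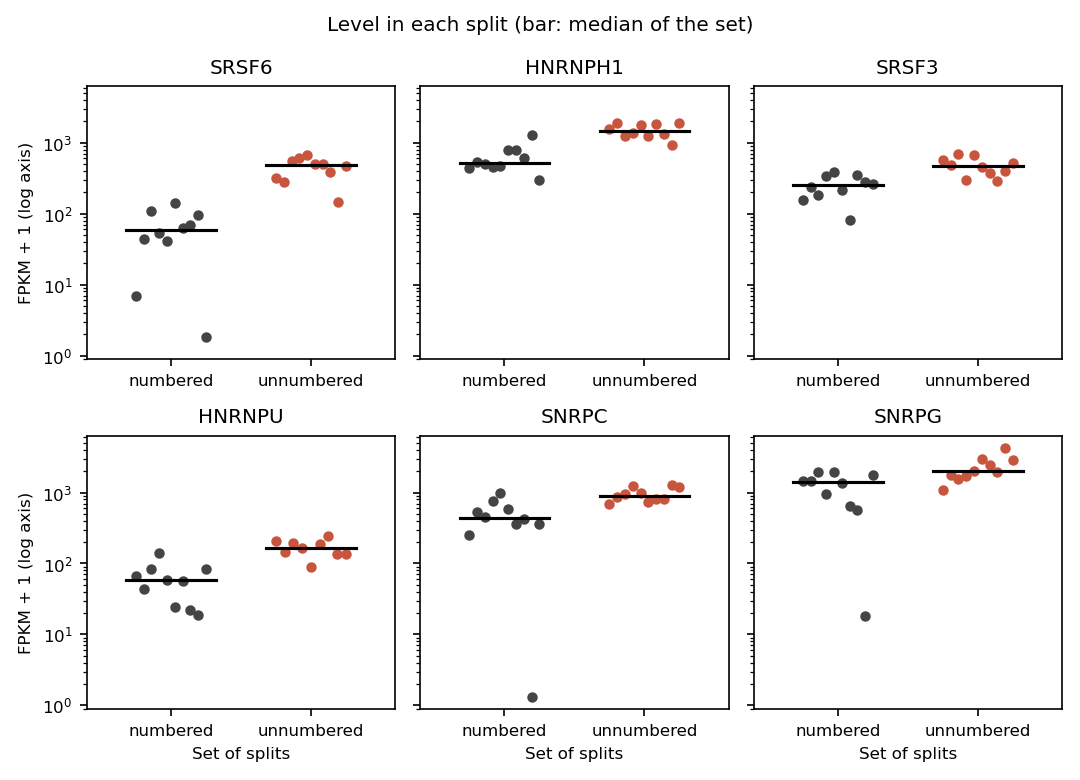
FPKM + 1 on a log axis in each split for SRSF6, HNRNPH1, SRSF3, HNRNPU, SNRPC and SNRPG, with the numbered set on the left and the unnumbered set on the right of each panel; bars mark the median of the set. SRSF6 does not overlap between the sets, 1 numbered split of HNRNPH1 reaches the unnumbered range, and split 9 is the isolated low point of SNRPC (0.326 FPKM) and SNRPG (17.2 FPKM).

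The differences of the Sm core lay on both sides of 0. Over its 7 genes the median log2 difference was 0.0023, and 3 lay below 0 and 4 above. SNRPG was the most abundant of all 39 genes, at 17.2, 1405 and 1930 FPKM in numbered splits and 1085, 1983 and 4209 FPKM in unnumbered splits. Split 9 was far below the rest, and the sets overlapped between 1085 and 1930 FPKM. The means were 1211 ± 645 and 2257 ± 905 FPKM, with a log2 difference of -1.38 (SE 0.58, limma adjusted p = 0.209), which was -0.77 without split 9 (adjusted p = 0.0967). It passed once the trend on transcript length was removed (0.0311), over a range of 0.0311 to 0.572.

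SNRPD1, SNRPD2 and SNRPE, which meet in the Sm ring with SNRPF and SNRPG, were abundant in both sets. SNRPD1 ran from 660 over 915 to 1622 FPKM and from 276 over 1137 to 1640 FPKM (means 1033 ± 344 and 1061 ± 454, log2 difference 0.09, SE 0.31, adjusted p = 0.896). SNRPD2 ran from 691 over 934 to 1645 FPKM and from 630 over 1140 to 1542 FPKM (means 986 ± 300 and 1083 ± 294, log2 difference -0.14, SE 0.21, adjusted p = 0.741). SNRPE ran from 561 over 942 to 1439 FPKM and from 480 over 1006 to 1377 FPKM (means 947 ± 271 and 949 ± 341, log2 difference 0.04, SE 0.24, adjusted p = 0.935). The sets overlapped between 660 and 1622 FPKM for SNRPD1, between 691 and 1542 FPKM for SNRPD2 and between 561 and 1377 FPKM for SNRPE. The sign of the difference turned in 9 of 34 alternatives for SNRPD1 and in 10 for SNRPE.

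Subunits of the same particle differed widely in level. SNRPG exceeded SNRPB, which encodes another protein of the same ring, 24.1-fold on average and in 20 of 20 splits. SNRPB averaged 97.9 ± 75.8 FPKM in numbered splits and 46.1 ± 74.5 FPKM in unnumbered splits, where 4 of 10 splits were below 1 FPKM (log2 difference 2.44, SE 1.14, adjusted p = 0.284). SNRPD3 and SNRPF averaged 260 and 169 FPKM over the 20 splits.

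The U1-specific proteins spanned a still wider range. SNRPC, which helps U1 snRNP hold the 5′ splice site, exceeded SNRPA by 30.2-fold and SNRNP70, which binds a stem loop of U1 RNA, by 477-fold on average. SNRPC was above SNRPA in 20 of 20 splits and above SNRNP70 in 19 of 20. SNRNP70 had the lowest mean of all 39 genes, 1.49 FPKM, was detected in 8 of 20 splits and was listed at 0 in 6. The 477-fold is therefore set against a mean near the detection level. SNRPC is described further because of its low split, a choice made after its values were seen. It stood at 0.326, 434 and 973 FPKM in numbered splits and 698, 900 and 1285 FPKM in unnumbered splits. Numbered splits 4 (752 FPKM) and 5 (973 FPKM) reached the unnumbered range, and the 0.326 FPKM belonged to split 9. The means were 468 ± 267 and 955 ± 215 FPKM, with a log2 difference of -1.80 (SE 0.77, adjusted p = 0.221). Without split 9 the difference was -0.95 (adjusted p = 0.0144), and over 34 alternatives the adjusted p ran from 0.0129 to 0.575, with 3 past the threshold.

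The U2-specific proteins and U2AF had differences in both directions. SF3B1, the largest subunit of the SF3b complex at the branch site, stood at 0.356, 135 and 323 FPKM in numbered splits and 51.6, 331 and 1096 FPKM in unnumbered splits. Split 9 was again the lowest, and the sets overlapped. The means were 143 ± 102 and 428 ± 347 FPKM, with a log2 difference of -1.90 (SE 0.80, adjusted p = 0.209). SNRPA1 and SNRPB2, which bind U2 RNA as a pair, had like means of 200 and 182 FPKM, and SNRPA1 was the higher of them in 11 of 20 splits.

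U2AF1, the small subunit of U2AF that reads the AG of the 3′ splice site, had the smallest p of the snRNP group. It stood at 0, 44.6 and 183 FPKM in numbered splits and 0, 0.736 and 161 FPKM in unnumbered splits. A single numbered split (6) and 5 unnumbered splits (247 to 250 and 252) were below 1 FPKM, while the highest values of the sets were close. Its means were 65.9 ± 66.8 and 23.4 ± 50.6 FPKM, with a log2 difference of 2.74 (SE 1.11, adjusted p = 0.191). U2AF2, the large subunit that binds the polypyrimidine tract, averaged 2.74 FPKM and was below U2AF1 in 15 of 20 splits.

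Many promoters of the snRNP group hold a short motif in common. RefSeq (GRCh38.p14) promoters were found for 36 of the 39 genes, all but SRSF2, HNRNPA1 and SNRPD1. In the 250 bases before the start, CCGGAAG or its reverse complement CTTCCGG, the core that ETS-family factors bind, stood in 8 of 14 promoters of the snRNP group (57.1%), 2 of 9 of the SR proteins (22.2%), 2 of 13 of the hnRNPs (15.4%) and 8.82% of all 27305 promoters. Both strands were searched, again from the first start listed for each gene, and the motif can share its edge bases with a GC box. The 27305 promoters were not limited to genes detected in these libraries. A match is a description of the letters only. The 8 windows of the snRNP group are shown in the direction of the gene, with the motif in capitals, because these genes share it across Sm, U1, U2 and U2AF proteins.
SNRPG (chr2:70293490-70293520, minus strand): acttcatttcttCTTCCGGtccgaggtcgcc
SNRPE (chr1:203861597-203861624, plus strand): ttctttattCCGGAAGttgctctcagag
SNRPD2 (chr19:45692361-45692391, minus strand): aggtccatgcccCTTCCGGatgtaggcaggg
SNRPB (chr20:2470812-2470842, minus strand): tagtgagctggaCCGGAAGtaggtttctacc
SNRPC (chr6:34757282-34757312, plus strand): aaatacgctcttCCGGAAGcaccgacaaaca
SNRPA1 (chr15:101295343-101295373, minus strand): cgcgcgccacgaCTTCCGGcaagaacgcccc
SNRPB2 (chr20:16729919-16729949, plus strand): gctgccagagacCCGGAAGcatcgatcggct
U2AF2 (chr19:55654993-55655023, plus strand): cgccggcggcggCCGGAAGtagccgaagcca
The motif starts from 30 bases (U2AF2) to 241 bases (SNRPE) before the start. These 8 genes span the range of levels, from SNRPG at 1734 FPKM to U2AF2 at 2.74 FPKM on average.

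Several members share their sequence with processed pseudogenes, which limits how far a row stands for 1 gene. Of 142 pseudogene rows for 20 members, 10 rows of 5 members (HNRNPA1, HNRNPA3, HNRNPC, SNRPE and SNRPG) had a mean of 20 FPKM or more. SNRPEP4 stood at 487 FPKM on average, 51.4% of SNRPE, and 49.4% of its windows of 100 bases, the read length in the titles, are found unchanged in the SNRPE transcript. For HNRNPA1P10, at 218 FPKM, the share was 47.6%, and for SNRPGP10, at 268 FPKM, it was 12.7%. The values of these genes and their copies are therefore uncertain. Adding the pseudogene rows to their parents, an alternative chosen after seeing the data, left the calls at 2, SRSF6 and HNRNPH1, neither of which has a pseudogene row at that level.

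The pairs below show how little separates such rows, in 60 bases of each coding sequence (GENCODE 29) with differing bases in capitals, starting at coding base 1 for SNRPE and SNRPG and at base 153 for HNRNPA1.
SNRPE: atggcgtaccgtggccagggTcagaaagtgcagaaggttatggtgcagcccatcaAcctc
SNRPEP4: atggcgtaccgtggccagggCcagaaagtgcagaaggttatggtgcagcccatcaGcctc
SNRPG: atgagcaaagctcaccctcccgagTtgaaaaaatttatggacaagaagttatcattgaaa
SNRPGP10: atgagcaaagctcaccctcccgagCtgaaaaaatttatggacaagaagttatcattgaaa
HNRNPA1: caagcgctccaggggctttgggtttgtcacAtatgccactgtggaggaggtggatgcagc
HNRNPA1P10: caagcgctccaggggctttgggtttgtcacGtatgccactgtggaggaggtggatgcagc
Over the whole aligned coding sequence SNRPEP4 matched SNRPE at 98.6% of bases, SNRPGP10 matched SNRPG at 98.2% and HNRNPA1P10 matched HNRNPA1 at 99.6%. Overlapping genes touched fewer members: a row of another gene at 0.1 or more of the member's level overlapped HNRNPA2B1 (CBX3, 108 FPKM) and SNRPD3 (C22orf13, 73.3 FPKM), and the labels do not state whether the kit kept the strand.

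Most of the genes were detected in most splits. Of the 38 genes read in all libraries 34.9 ± 2.13 were detected in a numbered split and 33.7 ± 1.77 in an unnumbered one (SD, n = 10), and 19 were detected in all 20 splits, 3 SR proteins, 10 hnRNPs and 6 of the snRNP group. Splits 7 and 8 held all 38. Split 9 held 31, and 3 of the 25 members with a mean of 100 FPKM or more (SNRPC, SNRPA1 and SF3B1) were below 1 FPKM there, 12%, against 19.3% of the 1434 genes at that level. In each of the other splits at most 1 of the 25 was below 1 FPKM, against 3.84% (split 7) to 24.3% (split 253) of the 1434 genes. SRSF5 was that gene in 5 splits, and HNRNPA3, SRSF6 and SNRPB2 were in 1 split each.

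The spread between splits was far above the error in the authors' confidence bounds. HNRNPA1, SNRPD2 and SNRPE had the smallest coefficient of variation (CV, the SD over the mean of the 10 splits, here averaged over both sets), at 0.257, 0.288 and 0.323. SRSF4 and U2AF1 had the largest, at 1.93 and 1.59, and SRSF5 came next, with 0.643 over the numbered and 2.36 in the unnumbered splits. The median CV of the SR proteins, hnRNPs and snRNP group was 0.682, 0.607 and 0.570 in numbered splits and 0.819, 0.601 and 0.593 in unnumbered splits. For all 38 genes in both sets the CV exceeded the error in those bounds, which need not be counting error alone. That error is the median over the splits with a positive level, so the wide bounds of split 247 weigh little in it. The median ratio was 17.9 over the numbered and 27.3 in unnumbered splits, and the lowest ratio was 5.7 and 4.05. Without numbered splits 5 to 8 the median CV of the SR proteins in numbered splits was 0.837.

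Set beside all genes of like level, most members varied less than the median gene. In the numbered set 9 of 10 SR proteins, 8 of 13 hnRNPs and 10 of 14 of the snRNP group, those with a set mean of 1 FPKM or more, lay below the median CV of their level class, and in unnumbered splits 6 of 10, 9 of 13 and 8 of 15. Among those above were all 3 numbered members at 1000 FPKM or more (HNRNPA1, SNRPD1 and SNRPG), against the median of 0.234 of their class. In unnumbered splits 2 of 5 members at 1000 FPKM or more lay below the median of their class. At 300 to 1000 FPKM 5 of 7 members did so in numbered splits and 6 of 12 in unnumbered splits. Shared splits, amplification and depth link these values, and no test was made.

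**Figure D5:**
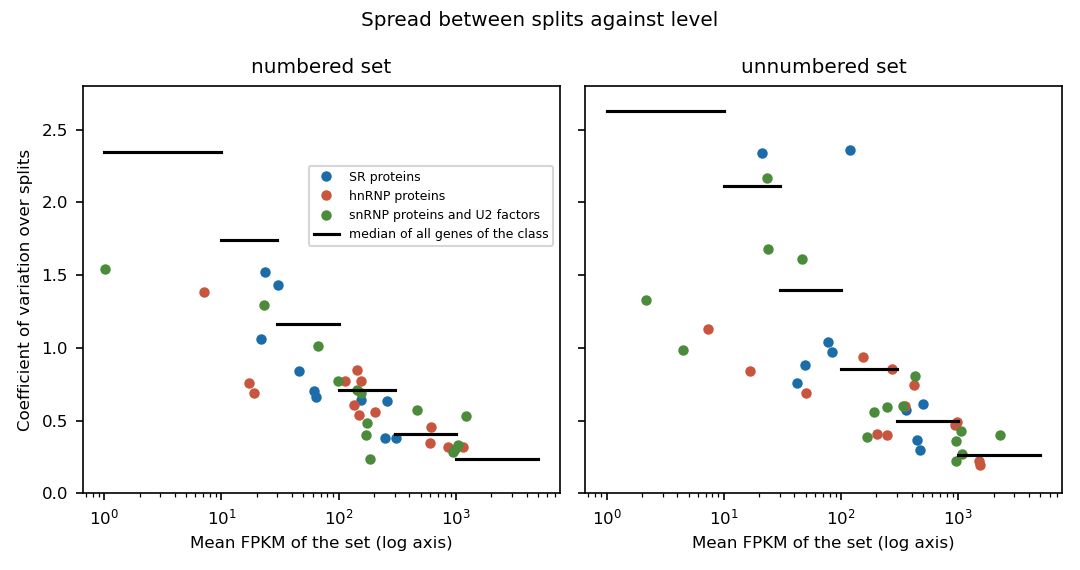
Coefficient of variation over the 10 splits of a set (vertical axis) against the mean FPKM of the set (log axis) for the members by family, with black lines for the median of all genes in each level class. In the numbered set (left) most members lie below the line of their class, and HNRNPA1, SNRPD1 and SNRPG lie above theirs at 1000 FPKM or more.

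A wider list of 83 other splicing factors, of which 79 were tested, gave 4 calls by the same limma fit, beside 5.31% of all genes tested, so the share called was near the background. In single directions it was 3 of 79 higher in unnumbered and 1 of 79 higher in numbered splits, beside 1.38% and 3.93% of all genes. Higher in unnumbered splits were SYNCRIP, an hnRNP-like protein (84.8 ± 88.5 against 384 ± 233 FPKM, log2 difference -3.26, SE 0.82, adjusted p = 0.0152), TRA2A, an SR-like activator (106 ± 71.9 against 479 ± 224 FPKM, -2.72, SE 0.69, adjusted p = 0.0161), and RBM8A of the exon junction complex (255 ± 82.4 against 588 ± 256 FPKM, -1.14, SE 0.32, adjusted p = 0.0327). LSM7, a protein of the LSm ring on U6 RNA, was higher in numbered splits, at 145 ± 77.9 against 24.8 ± 37.4 FPKM (3.90, SE 1.10, adjusted p = 0.0336). The kinases SRPK1 and CLK3, which phosphorylate SR proteins, came next in that direction and did not pass, at 3.34 (SE 1.02, adjusted p = 0.0541) and 2.98 (SE 1.15, adjusted p = 0.161). The most abundant of the list, SNU13, SON and LSM5, did not pass either.

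These 4 calls did not hold in all 34 alternatives, as those of SRSF6 and HNRNPH1 did. Without numbered splits 5 to 8, a fit with 4 fewer libraries, the log2 difference was -2.43 for SYNCRIP (adjusted p = 0.0541), -3.06 for TRA2A (0.0547) and -1.13 for RBM8A (0.0805). Over the 34 alternatives the adjusted p ran from 0.0059 to 0.177, from 0.00158 to 0.0547 and from 0.00381 to 0.125. LSM7 passed in 14 of 34 alternatives, with adjusted p from 0.00262 to 0.231. The median log2 difference over the 79 was -0.20, with 42 below 0, beside a median of 0.35 and 40.1% below 0 over all genes tested.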

How the data were processed

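The 20 pool-split libraries have deposited gene tables of FPKM, made by the authors; the submitters' processing notes list Cufflinks 2.0.2 and TopHat 1.4.1, and no genome build is named for them in the labels. The other 42 samples were not analysed here, and for 34 of them the labels gave no group. Of 55040 rows, 5797 with too little data in every library and 128 with a failed estimate in at least 1 library were left out, among them HNRNPU. Depth came from the upper bounds of mitochondrial genes, which lie 2 counting errors above the value.

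Computed here (Python 3.11.15, R 4.3.3, limma 3.58.1): log2(FPKM + 1), limma with trended variance over the 10506 rows with a mean of 1 FPKM or more, Benjamini-Hochberg adjustment and a threshold of 0.05. The fit was tested on simulated data. Lengths and gene types came from GENCODE 29. The members and lists were chosen with earlier results of these data known. Full values are given for members past the threshold, the 3 most abundant and the 2 of smallest p in each family, and the 3 most and 3 least variable; from the other splicing factors, the 3 of smallest p in each direction and the 3 most abundant. Alternatives were other pseudocounts, filters, scalings, an exact rank-sum test, a covariate for the experiment-number run and leaving out libraries.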

Additional observations from a re-analysis of the deposited data

Results flagged for a closer look

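Within each set of 10 splits, a value was picked out when its gap to the next exceeded 0.466 of the set's range (Dixon's critical value). Gap and range were taken on log2(FPKM + 1) for genes and on the percent itself for family shares. The log scale widens gaps at low levels and narrows those at high levels, so an isolated high FPKM is picked less readily. Of 102 groups checked 20 were picked, and 7 of the 20 lay in numbered split 9. The critical value picks about 1 in 20 groups when values are independent and normally distributed. These groups share libraries and their values are skewed, so no chance rate can be set beside the 20.

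Split 9 was low for SNRPG (17.2 FPKM), SNRPC (0.326), SNRPA1 (0.297), SNRPB (0.253), SF3B1 (0.356) and HNRNPA1 (476), and high for the hnRNP share of the FPKM (0.410%). Split 1 was low for SRSF10 (3.70 FPKM) and HNRNPA3 (0.600), and split 4 for SRSF5 (0.206).

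In the unnumbered set split 253 was low for SRSF7 (11.8 FPKM), SNRPD3 (12.9) and SNRPB2 (0.0420). SRSF10 was low in split 251 (39.6 FPKM), HNRNPK in split 252 (4.56) and SNRPA1 in split 233 (3.96). Split 247, the shallowest library, held none of them.

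Among the other splicing factors, LSM7 was listed at 0 in split 1 and TRA2A was at 0.267 FPKM in split 10 of the numbered set, below the rest. In the unnumbered set LSM5 was low in split 253 (0.0988 FPKM) and CLK3 high in split 246 (146 FPKM).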

How the results depend on the processing

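Of 1290 values of single members under the 34 alternatives, 1271 kept their side of the threshold and 19 crossed it to pass, and no call was lost or turned; 9 members that did not pass changed sign in 1 to 15 of them. Members called higher in the unnumbered set were 4 instead of 2 under scaling to the same total and under size factors (HNRNPA1 and SRSF3 joined), by the exact rank-sum test (SRSF3 and SNRPC joined), and without splits 9 and 247, a choice made after seeing the data (SRSF3 and SNRPC joined). Other splicing factors higher in the unnumbered set were 1 with the experiment-number block as covariate, 0 without numbered splits 5 to 8 and 5 by the rank-sum test, instead of 3. Those higher in the numbered set were 2 at a mean of 10 FPKM or more, 0 with the length trend removed, with no filter, with a pseudocount of 0.1, with the experiment-number block as covariate, without splits 5 to 8 and without splits 9 and 247, and 0 to 2 when each library was left out in turn, instead of 1. At 10 FPKM or more, 30.9 and 30.4 members were detected per numbered and unnumbered split. Without splits 5 to 8 the median CV of the numbered SR proteins was 0.837. As the SD of log2(FPKM + 1) in place of the CV, the median spread of the SR proteins, hnRNPs and snRNP group was 1.88, 1.01 and 0.96 over numbered and 1.97, 0.92 and 1.36 over unnumbered splits. Scaled to the same total, the numbered families summed to 898 (SR proteins), 3024 (hnRNPs) and 4022 (snRNP group). Without its most abundant member the hnRNP share was 0.221% and 0.439% and the snRNP share 0.319% and 0.470%. The cause of these moves was not tested beyond what each alternative leaves out.

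Calls over all genes (higher in numbered, then in unnumbered splits) were 413 and 145, 345 and 217 under scaling to the same total, 309 and 194 under size factors and 227 and 230 with the length trend removed. Removing the length trend also brings the genes of every library to a common centre, which bears on the balance of those calls. No paired analysis was possible because the sets share no replicate numbers: the unnumbered splits carry library numbers only. Depth is an estimate, and in split 247 it is too low for genes of low level.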
